A study of Mus musculus with 13 samples.

Results

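Newly made kidney RNA was examined for 10 genes through which the proximal tubule activates vitamin D and recovers phosphate. These are Cyp27b1, Cyp24a1, Vdr, Rxra, Kl, Fgfr1, Pth1r, Slc34a1, Slc34a3 and Slc20a2, taken by symbol from a table of estimated read counts for 35013 gene symbols. All 10 were found, and all 10 were among the 16468 genes with enough counts to be tested. Their mean counts per library ran from 760.1 for Slc34a3 to 71570 for Slc34a1.

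The proximal tubule takes up filtered vitamin D bound to its carrier protein and converts it to the active hormone calcitriol with Cyp27b1, the hydroxylase that activates it, whereas Cyp24a1, a second hydroxylase, breaks calcitriol down. Calcitriol acts through the nuclear receptor Vdr, which binds DNA together with Rxra. Parathyroid hormone, acting through its receptor Pth1r, raises Cyp27b1, whereas the bone hormone FGF23, acting through Fgfr1 and its co-receptor Klotho (gene Kl), lowers Cyp27b1 and raises Cyp24a1. Both hormones withdraw from the brush border the sodium-phosphate cotransporters encoded by Slc34a1 and Slc34a3, which recover most filtered phosphate. Slc20a2 encodes a further sodium-phosphate carrier.

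The study compared kidneys of female mice in 3 groups to ask whether loss of Spns1, a lysosomal membrane protein that it describes as an iron transporter, and iron loading change the same genes. Spns1 KO mice (4 libraries) carried Megalin-CreERT with both alleles of Spns1 floxed (Spns1 fl/fl). The labels give WT (5 libraries) as Spns1 WT, whereas the study's methods describe littermates with Megalin-CreERT and 1 floxed Spns1 allele (flox/+), so that WT too may carry a deleted allele. FeO mice (4 libraries) had the genotype of WT and received 12 mg of iron as iron sucrose (by the labels, of iron sucrose) on each of 3 days, and were euthanized 1 week later. All groups carried 1 allele of Uprt (Uprt f/+). Tamoxifen-activated Cre, made from the megalin (Lrp2) locus and so in proximal tubule cells, switched on this uracil phosphoribosyltransferase, which lets cells build injected 4-thiouracil into new RNA. The tagged RNA was biotinylated, captured on streptavidin, selected for poly-A tails and sequenced. Ages were not given in the sources used here.

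Library totals ranged from 23068023 to 71296474 counts, and the library labelled Spns1 KO 1 was the deepest. Levels are given as CPM, the counts-per-million of the TMM-scaled library total. The targeted gene, Spns1, lay between 39.2 and 62.9 CPM in WT, between 39.0 and 58.7 CPM in FeO and between 36.6 and 59.0 CPM in the libraries labelled Spns1 KO, so its counts, which cover every exon, did not separate the groups (log2 fold change of Spns1 KO against WT -0.31, SE 0.18, edgeR adjusted p = 0.225). Spns1 KO, WT and FeO are therefore used as names for what the labels say, and each direction given for Spns1 KO is that of the libraries so labelled. All 9 proximal tubule markers were present, but so were those of other segments. The summed proximal tubule markers were 2240 to 3140 CPM in WT, 3600 to 4380 in Spns1 KO and 1640 to 3190 in FeO. The summed markers of the distal convoluted and connecting tubule were 795 to 2130, 2280 to 3360 and 727 to 2600 CPM in the same order. FeO 1 stood apart, with the lowest proximal tubule sum (1640 CPM) and the highest sums for collecting duct (1500 CPM) and podocytes (630 CPM). Other markers moved with whole groups. In FeO 4 of 5 macrophage markers (sums of 71.3 to 92.9 CPM, against 45.5 to 54.4 in WT), 3 of 4 podocyte markers and 3 of 5 collecting duct markers were called higher. Of all tested genes 22.4% were called higher in FeO and 14.0% in Spns1 KO. Of 5 fibroblast markers 3 were called higher in Spns1 KO, where the sums (128 to 169 CPM) lay above every WT library (80 to 117 CPM). Macrophage sums (62.1 to 74.4 CPM) and endothelial sums (163 to 177 CPM, against 135 to 159 in WT) also lay above every WT library in Spns1 KO. There 0 of 5 macrophage, 1 of 4 endothelial and 2 of 4 podocyte markers were called higher. The part of these cells in the member results was not tested. No marker of the 8 cell type lists was at 0 in every library.

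A gene was called higher or lower when edgeR's quasi-likelihood test gave an adjusted p (Benjamini-Hochberg, over all tested genes) under 0.05 and a log2 fold change above 0.5 or below -0.5. In Spns1 KO against WT, Kl, Pth1r and Slc34a3 were called higher and no member lower, that is 3 and 0 of 10, where 14.0% of all tested genes were called higher and 7.55% lower. At an unadjusted p under 0.05, 3 members were lower, and DESeq2 and limma-voom also called 0 lower. Only 1 member was called without Spns1 KO 1, 2 or 3. Without WT 5 Cyp27b1 was called lower, and without Spns1 KO 4 Fgfr1 was. In FeO against WT, Pth1r was called higher and Cyp27b1 and Vdr lower, that is 1 and 2 of 10, against 22.4% and 19.7% of all tested genes. The lower share in FeO was thus close to that of genes in general and the higher share was below it. Without FeO 2, 1 member was called higher and 4 lower. In Spns1 KO against FeO, Slc34a1 and Slc34a3 were called higher and no member lower (0 also at an unadjusted p under 0.05 and by DESeq2 and limma-voom), against 6.76% and 8.10% of all tested genes. The libraries did not overlap for 4 members between Spns1 KO and WT, for 2 between FeO and WT and for 2 between Spns1 KO and FeO, where 22.4%, 33.4% and 17.4% of all tested genes did not. Against WT, the median log2 fold change of the 10 genes was -0.38 in FeO and -0.04 in Spns1 KO, beside -0.011 and -0.045 over all tested genes. Both comparisons with WT use the same WT libraries and are therefore not independent.

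**Figure D1:**
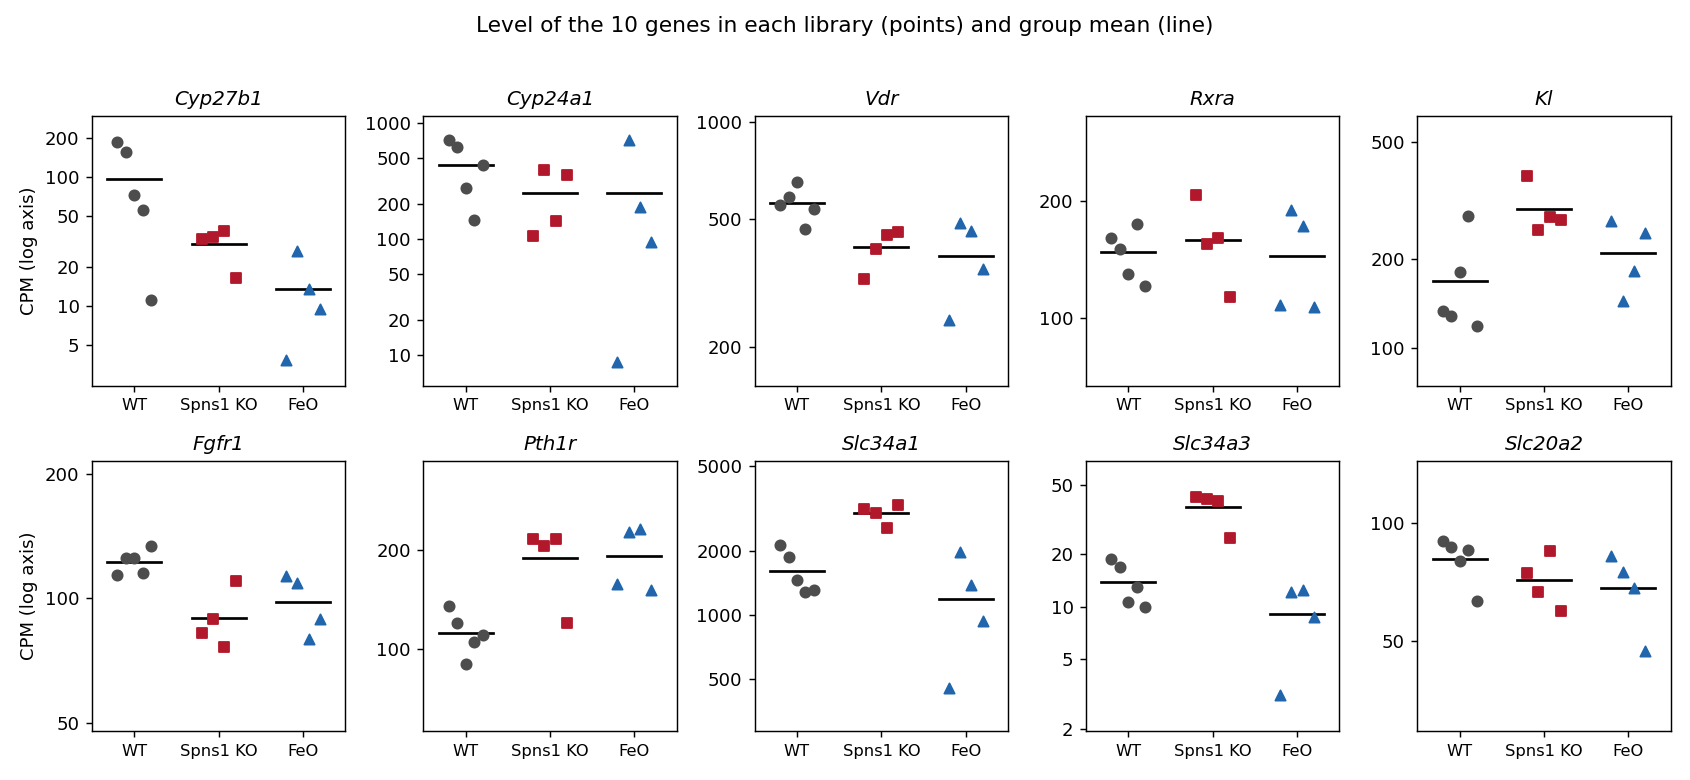
Level of each of the 10 genes in every library, in CPM on a log axis that differs between panels, with WT as circles, Spns1 KO as squares and FeO as triangles, and the line at the group mean. The 4 Spns1 KO libraries lie above every WT and every FeO library for Slc34a1 and Slc34a3, and FeO 1 is the lowest library for Cyp27b1, Cyp24a1, Vdr, Slc34a1 and Slc34a3.

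**Figure D2:**
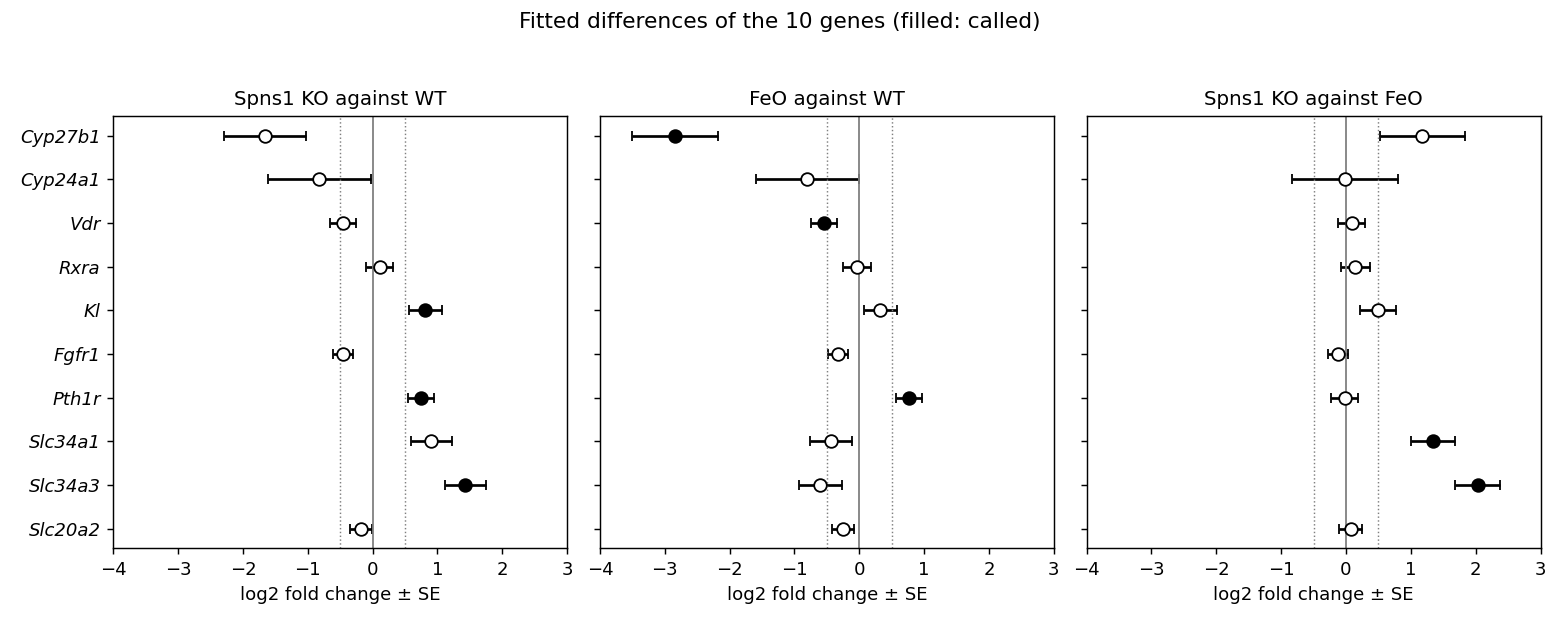
Fitted log2 fold change of each gene with its standard error in the 3 comparisons. Filled points passed both limits, and the dotted lines mark 0.5 in either direction. Pth1r is filled in both comparisons with WT, Cyp27b1 has the lowest value in FeO against WT (-2.84) and Slc34a3 the highest in Spns1 KO against FeO (2.03).

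Cyp27b1, the activating hydroxylase (chr10:127048250-127053006 of GRCm38, plus strand), was the member that fell most in FeO. It measured 3.84, 26.9, 13.6 and 9.52 CPM in FeO 1 to 4. In WT 1 to 5 it measured 186, 158, 73.0, 55.1 and 11.1 CPM. It measured 33.2, 34.3, 38.1 and 16.5 CPM in Spns1 KO 1 to 4. WT spanned a 16.8-fold range, because WT 5 lay far below the other WT libraries, and both FeO 1 and FeO 4 lay below WT 5. The log2 fold change of FeO against WT was -2.84 (SE 0.67, adjusted p = 0.00361), a fitted level of 0.139 times WT. The call held when any 1 of the 13 libraries was left out (-3.41 to -2.46, with -2.51 and adjusted p = 0.0119 without FeO 1) and under the 9 other settings tried. In tagged RNA captured from a whole kidney, fewer cells of a type and less new RNA per cell cannot be told apart.

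In Spns1 KO the log2 fold change of Cyp27b1 was -1.66 (SE 0.63, adjusted p = 0.0663), which missed the limit. All 4 Spns1 KO libraries lay above WT 5 and below the other 4 WT libraries. Without WT 5 the value was -1.93 (adjusted p = 0.0162, edgeR) and passed, and with WT 5 kept it also passed with library totals as the only scaling (-1.75, adjusted p = 0.044) and with a replicate block (-1.90, adjusted p = 0.017). Spns1 KO did not differ from FeO beyond the spread between libraries (log2 fold change 1.18, SE 0.65, adjusted p = 0.218).

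The reference promoter of Cyp27b1 is shown because this gene fell most in FeO. Half-sites of the kind that Vdr, Rxra and related nuclear receptors bind were searched on both strands as AGGTCA or AGTTCA and as GGGTCA or GGTTCA. At least 1 occurs in 43.7% of 32841 RefSeq promoter windows of this length, from 250 bases before the start site to 50 from it onward. The window is chr10:127047996-127048295 on the plus strand (RefSeq, GRCm38.p6), printed 5′ to 3′, with the half-site in capitals.
Cyp27b1: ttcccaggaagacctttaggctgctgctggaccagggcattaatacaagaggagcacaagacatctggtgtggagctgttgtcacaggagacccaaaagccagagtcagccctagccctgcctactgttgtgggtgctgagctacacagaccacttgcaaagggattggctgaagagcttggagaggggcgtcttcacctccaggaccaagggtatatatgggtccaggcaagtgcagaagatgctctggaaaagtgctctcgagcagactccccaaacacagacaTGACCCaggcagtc
Its only half-site begins 37 bases into the transcript, on the minus strand. A match is a string of letters and not a known site. Of the 10 genes, 7 had an entry with 10 windows in all. None held a pair of half-sites as a direct repeat with 3 bases between, the arrangement Vdr and Rxra prefer, which occurred in 0.0396% of all windows.

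Cyp24a1, the hydroxylase that breaks calcitriol down (chr2:170482708-170497145, minus strand), had the widest range over the 13 libraries, although within WT Cyp27b1 varied more. It stood at 719, 625, 275, 145 and 432 CPM in WT 1 to 5. The libraries labelled Spns1 KO 1 to 4 gave 106, 391, 144 and 354 CPM. In FeO 1 to 4 the values were 8.62, 714, 189 and 93.7 CPM. FeO alone spanned an 82.8-fold range, from the lowest library of all to one level with the highest WT library, and the groups overlapped throughout. The log2 fold change was -0.82 in Spns1 KO (SE 0.79, adjusted p = 0.471) and -0.81 in FeO (SE 0.79, adjusted p = 0.418). These standard errors were the largest of the 10 genes. Spns1 KO and FeO differed by -0.01 (SE 0.82, adjusted p = 0.992), a value whose sign changed with the setting. Without FeO 2 the FeO value was -2.16 (adjusted p = 0.0339, edgeR), so that library decided the call.

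The balance of the activating and the degrading enzyme was compared as the ratio of their counts within a library, which does not depend on library scaling. Cyp27b1 counts per Cyp24a1 count were 0.259, 0.252, 0.266, 0.379 and 0.0257 in WT 1 to 5. They were 0.312, 0.0877, 0.265 and 0.0465 in Spns1 KO 1 to 4 and 0.445, 0.0377, 0.0717 and 0.102 in FeO 1 to 4. In WT, 4 of 5 libraries had a ratio between 0.252 and 0.379 although their levels differed, and WT 5 lay far under them. On the log2 scale the ratio differed by -0.38 between Spns1 KO and WT (two-sided exact permutation p = 0.714, 0.771 after adjustment over 9 ratio tests) and by -0.74 between FeO and WT (exact permutation p = 0.492, 0.633 adjusted). FeO 1, the library with the least of both transcripts, had the highest ratio of all 13.

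**Figure D3:**
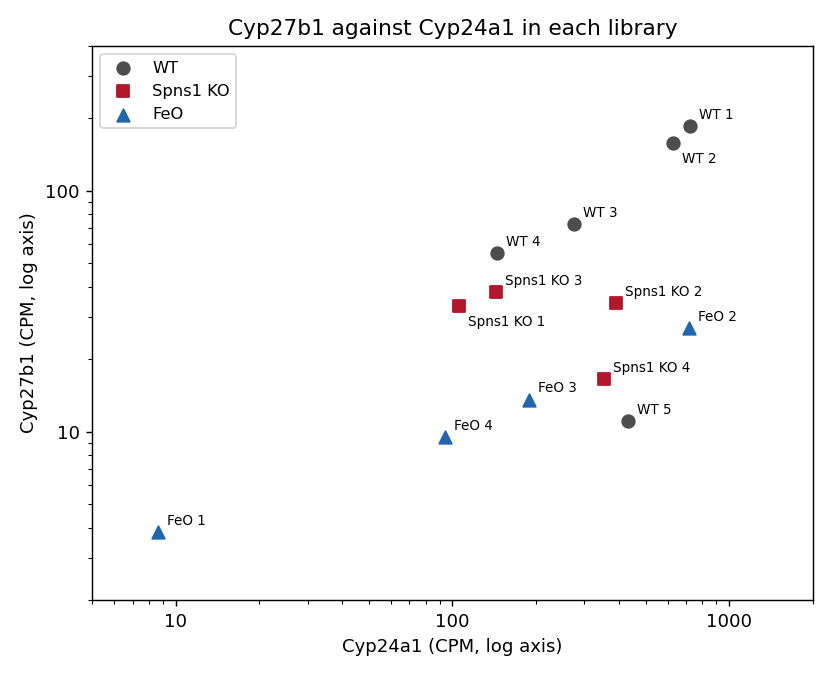
Cyp27b1 (vertical) against Cyp24a1 (horizontal) in each library, both in CPM on log axes, with every library named. WT 1 to 4 fall along a line of near-constant ratio between 0.252 and 0.379, WT 5 falls under it with 11.1 CPM of Cyp27b1, and FeO 1 lies at the low end of both axes.

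Vdr, the calcitriol receptor (chr15:97854425-97910630, minus strand), was called lower in FeO and lay below WT in every Spns1 KO library. WT 1 to 5 held 554, 587, 654, 468 and 538 CPM. Spns1 KO 1 to 4 held 327, 404, 446 and 458 CPM, all below the lowest WT library. The 4 FeO libraries held 243, 487, 460 and 351 CPM, of which FeO 2 lay inside the WT range. FeO differed from WT by a log2 fold change of -0.54 (SE 0.20, adjusted p = 0.0418), which was called, and Spns1 KO by -0.46 (SE 0.20, adjusted p = 0.118), which was not. The FeO value lay close to both limits, and the call was lost without Spns1 KO 2 or 3, WT 1, 2, 3 or 5, FeO 1 or FeO 4, with -0.35 (adjusted p = 0.147, edgeR) without FeO 1 and adjusted p from 0.051 to 0.11 without the others. It was also lost with no filter (-0.48), with 2 groups in the fit (-0.54) and with the length and GC trend removed (-0.36). Spns1 KO and FeO differed by 0.09 (SE 0.21, adjusted p = 0.806).

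Rxra, the DNA-binding partner of Vdr (chr2:27676440-27762957, plus strand), showed no difference in CPM beyond the spread between libraries. It ranged from 121 to 175 CPM in WT, 107 to 190 CPM in FeO and 113 to 207 CPM in Spns1 KO. Against WT it differed by -0.03 in FeO (SE 0.21, adjusted p = 0.907) and by 0.11 in Spns1 KO (SE 0.21, adjusted p = 0.737) on the log2 scale. Both values changed sign when some single libraries were left out.

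Kl, which encodes the FGF23 co-receptor Klotho (chr5:150952607-150993817, plus strand), was higher in Spns1 KO. The libraries labelled Spns1 KO 1 to 4 had 383, 251, 278 and 272 CPM. It was at 134, 128, 181, 280 and 119 CPM in WT 1 to 5. In FeO the values were 270, 144, 183 and 246 CPM. In WT, 4 of 5 libraries lay below every Spns1 KO library, whereas WT 4 lay above 3 of them. The log2 fold change in Spns1 KO was 0.82 (SE 0.26, adjusted p = 0.0332), a fitted level of 1.76 times WT. In FeO it was 0.32 (SE 0.26, adjusted p = 0.314), but it passed without WT 4 (0.60, adjusted p = 0.0362, edgeR) and with the length and GC trend removed (0.68, adjusted p = 0.0354). The Spns1 KO call was lost without any 1 of Spns1 KO 1, 2 and 3 and WT 1, 2, 3 and 5 (values from 0.67 to 1.09 over all 13 omissions) and with library totals as the only scaling (0.68, adjusted p = 0.0703, edgeR).

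Kl is made most strongly in the distal tubule, and the distal marker sum was higher in all 4 Spns1 KO libraries (2280 to 3360 CPM) than in any WT library (795 to 2130 CPM). Of the 6 markers behind it, Pvalb and Klk1 were called higher in Spns1 KO and Trpm6 lower (log2 fold change -1.09, adjusted p = 0.0366, edgeR). The others were not called, with 1.005 for Slc12a3 (adjusted p = 0.117, edgeR), 0.31 for Calb1 and -0.13 for Trpv5. Library by library the 2 measures did not run together throughout. WT 4, with the most Kl of WT, had the highest sum (2130 CPM), but WT 5, with the least Kl, had the next highest (1240 CPM). FeO 1 and FeO 4, with the most Kl of their group, had 2440 and 2600 CPM, against 727 and 1110 in FeO 2 and FeO 3. Within Spns1 KO, the library with the least Kl (Spns1 KO 2) had the highest sum, 3360 CPM, and that with the most Kl (Spns1 KO 1) had 2660 CPM. The part of distal tubule RNA in the Kl difference was not tested.

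Fgfr1, a receptor for FGF23 (chr8:25513654-25575718, plus strand), lay lower in both groups than in WT, where it varied little. WT 1 to 5 gave 114, 125, 125, 115 and 134 CPM. Spns1 KO 1 to 4 gave 82.3, 89.2, 76.4 and 110 CPM. The FeO libraries gave 113, 109, 79.8 and 88.9 CPM. Every Spns1 KO and every FeO library lay below every WT library, although FeO 1 lay just below the lowest WT library. Fgfr1 passed the p limit in Spns1 KO with a log2 fold change of -0.46 (SE 0.15, adjusted p = 0.0381) but not the fold limit, so it was not called. Without Spns1 KO 4 it passed both (-0.57, adjusted p = 0.0085, edgeR). In FeO the value was -0.33 (SE 0.15, adjusted p = 0.0826), and -0.03 (adjusted p = 0.847) with the length and GC trend removed. Of the 31-base sequences of Fgfr1 transcripts, 3.66% also occur in other genes, mostly in the antisense gene Gm16159, and whether counting used strand was not given in the sources used here.

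Kl counts per Fgfr1 count were 1.17, 1.03, 1.45, 2.44 and 0.883 in WT 1 to 5 and 4.65, 2.82, 3.63 and 2.48 in Spns1 KO 1 to 4. FeO 1 to 4 gave 2.39, 1.33, 2.29 and 2.76. All 4 Spns1 KO libraries were above every WT library, if only just above WT 4. The log2 ratio differed by 1.34 between Spns1 KO and WT (two-sided exact permutation p = 0.0159), which did not pass after adjustment over the 9 ratio tests (0.143). Between FeO and WT it differed by 0.70 (exact permutation p = 0.111, 0.2 adjusted). The smallest p that this two-sided test allows for 4 against 5 libraries is 0.0159, which the ratio reached between Spns1 KO and WT.

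Pth1r, the parathyroid hormone receptor (chr9:110722085-110747145, minus strand), was the one member called higher in both groups. FeO 1 to 4 measured 157, 226, 232 and 151 CPM. WT 1 to 5 measured 135, 120, 90.3, 105 and 110 CPM, all below the lowest FeO library. Spns1 KO 1 to 4 measured 215, 205, 215 and 120 CPM, and Spns1 KO 4 alone lay inside the WT range. Against WT the log2 fold change was 0.77 in FeO (SE 0.20, adjusted p = 0.00693) and 0.75 in Spns1 KO (SE 0.20, adjusted p = 0.016), fitted levels of 1.71 and 1.68 times WT. The groups differed from each other by -0.02 (SE 0.21, adjusted p = 0.955). In FeO the call held under every alternative, from 0.67 to 0.89 when 1 library was left out (0.87 without FeO 1, adjusted p = 0.0069). In Spns1 KO it was lost without Spns1 KO 1, 2 or 3 (0.68 to 0.71, adjusted p from 0.0519 to 0.0578, edgeR) and with a trend on transcript length and GC content removed (0.51, adjusted p = 0.0933). The proximal tubule marker sum was above every WT library in all 4 Spns1 KO libraries, and FeO spanned the WT range in it. In FeO 1 and FeO 4 Pth1r was above every WT library with marker sums of 1640 and 2050 CPM, below every WT library. FeO 1 and FeO 4 also had the highest podocyte sums (630 and 500 CPM, against 155 to 276 in WT). The part of these cells in the Pth1r differences was not tested. Relative to the marker sum of the same library, a scale chosen after the data were seen, the difference from WT was 0.16 in Spns1 KO (two-sided exact permutation p = 0.46, 0.531 after adjustment over 30 such tests) and 0.96 in FeO (exact permutation p = 0.0159, 0.0866 adjusted).

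Slc34a1, the main sodium-phosphate cotransporter of the proximal tubule (chr13:55398187-55415592, plus strand), was the most abundant of the 10 transcripts. Spns1 KO 1 to 4 had 3160, 3020, 2560 and 3300 CPM. WT 1 to 5 had 2140, 1870, 1460, 1280 and 1300 CPM. FeO 1 to 4 had 453, 1980, 1380 and 931 CPM. Every Spns1 KO library lay above every library of the other groups, and FeO 1 and FeO 4 lay below every WT library. The log2 fold change was 0.90 in Spns1 KO against WT (SE 0.32, adjusted p = 0.0518), just short of the limit, and -0.44 in FeO (SE 0.32, adjusted p = 0.278). Tested directly, Spns1 KO exceeded FeO by 1.34 (SE 0.34, adjusted p = 0.019), a fitted level of 2.54 times FeO. DESeq2 called the Spns1 KO difference from WT (0.90, adjusted p = 0.0171), as did a fit of those 2 groups alone (0.93, adjusted p = 0.00596, edgeR) and the fits without WT 1, FeO 1 or FeO 2 (adjusted p = 0.0483, 0.0124 and 0.0257). Without FeO 2 the FeO value was -0.79 (adjusted p = 0.0496) and was called, whereas without FeO 1 it was -0.15 (adjusted p = 0.682). Between Spns1 KO and FeO the call was lost when only those groups were fitted (1.34, adjusted p = 0.0602, edgeR), and without FeO 1 the value was 1.07 (adjusted p = 0.0341). Some 11% of the 31-base sequences of Slc34a1 occur in other genes, mostly in Pfn3, which overlaps it on the opposite strand over 545 bases.

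Slc34a3, the second brush border cotransporter (chr2:25228898-25234364, minus strand), rose most of the members in Spns1 KO. Spns1 KO 1 to 4 had 42.6, 41.4, 40.6 and 24.9 CPM. WT 1 to 5 had 18.7, 17.0, 10.6, 12.9 and 9.96 CPM. FeO 1 to 4 had 3.11, 12.2, 12.5 and 8.70 CPM. The 4 Spns1 KO libraries again lay above all others, with Spns1 KO 4 closest to WT. The log2 fold change was 1.43 in Spns1 KO against WT (SE 0.32, adjusted p = 0.00583), a fitted level of 2.70 times WT, and -0.60 in FeO (SE 0.33, adjusted p = 0.142; -0.29 without FeO 1, adjusted p = 0.356). Spns1 KO exceeded FeO by 2.03 (SE 0.35, adjusted p = 0.0039), or 4.09 times. Both Spns1 KO calls held under every alternative fit, from 1.35 to 1.58 against WT and from 1.75 (without FeO 1) to 2.22 against FeO when 1 library was left out.

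The promoters of both cotransporters are shown because their levels ran together across libraries. The windows are chr13:55399398-55399697 on the plus strand for Slc34a1 and chr2:25234185-25234484 on the minus strand for Slc34a3 (RefSeq, GRCm38.p6), 5′ to 3′, with half-sites in capitals.
Slc34a1: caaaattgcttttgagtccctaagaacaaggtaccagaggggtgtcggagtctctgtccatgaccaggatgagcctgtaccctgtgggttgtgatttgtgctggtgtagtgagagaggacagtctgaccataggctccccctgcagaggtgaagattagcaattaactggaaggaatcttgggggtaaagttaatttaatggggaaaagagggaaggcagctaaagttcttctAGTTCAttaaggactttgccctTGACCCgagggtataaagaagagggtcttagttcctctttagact
Slc34a3: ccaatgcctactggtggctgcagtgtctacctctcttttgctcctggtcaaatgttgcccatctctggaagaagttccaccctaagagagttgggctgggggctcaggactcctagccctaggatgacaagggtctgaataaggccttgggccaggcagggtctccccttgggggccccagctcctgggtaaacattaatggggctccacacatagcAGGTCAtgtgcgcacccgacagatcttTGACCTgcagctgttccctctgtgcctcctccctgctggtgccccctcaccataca
Each window holds 2 half-sites, and 2 or more occur in 13.1% of all windows. In Slc34a1 they begin at positions -17 and 6 from the start site, and in Slc34a3 at -33 and -6. In both genes the first lies on the plus and the second on the minus strand. The start sites are those of RefSeq and differ from the gene starts given above. By those coordinates the Slc34a1 window lies wholly inside the gene, and the Slc34a3 start site also lies inside its gene. TATAAA begins at position 17 in Slc34a1, and it occurs on either strand in 13.6% of all windows.

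**Figure D4:**
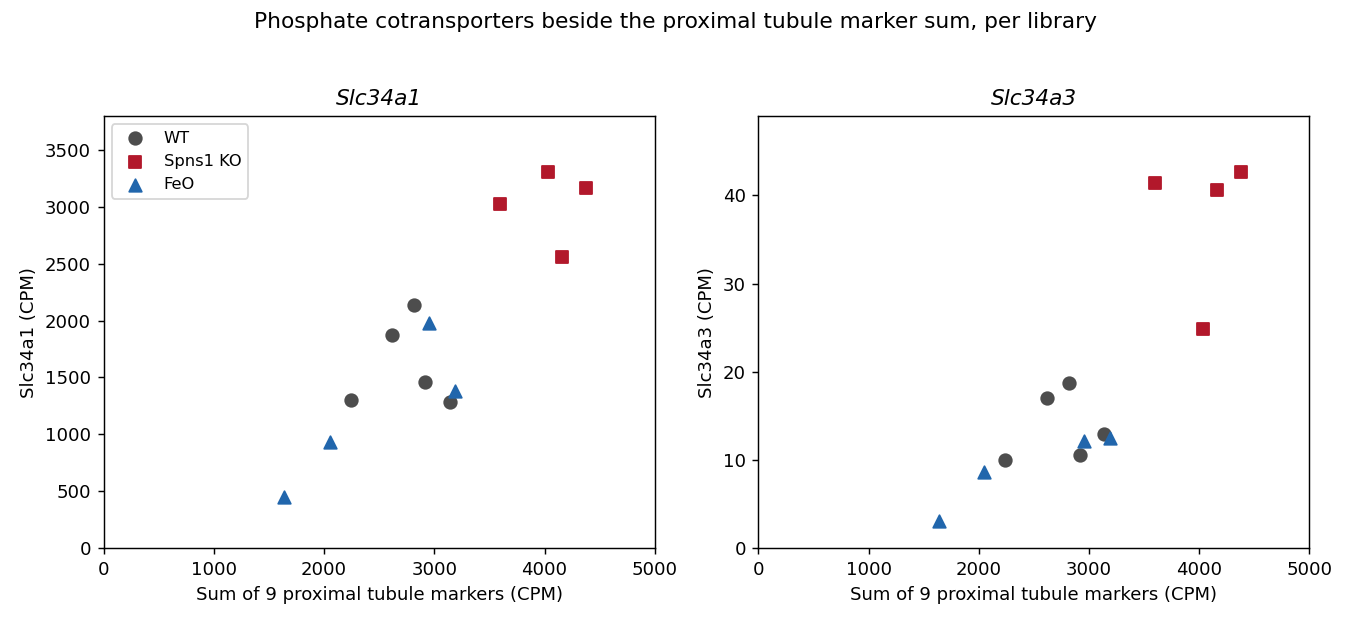
Slc34a1 (left) and Slc34a3 (right) in CPM against the sum of 9 proximal tubule markers in CPM, per library. Spns1 KO libraries lie at sums of 3600 to 4380, to the right of every other library, and FeO 1 lies lowest on all axes, at 453 CPM of Slc34a1, 3.11 CPM of Slc34a3 and a sum of 1640.

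In Spns1 KO, markers of the proximal tubule moved with both genes: 6 of 9 were called higher and none lower. Their median log2 fold change was 0.84, and all 9 were detected. Hnf4a, the marker with the highest mean in WT (1070 CPM), had -0.02 in Spns1 KO. Of the 9 markers, 2 were called higher and 1 lower in FeO (median -0.39), where neither cotransporter was called. On the same scale relative to the marker sum, Slc34a1 differed by 0.37 on the log2 scale between Spns1 KO and WT (two-sided exact permutation p = 0.111, 0.185 adjusted) and by 0.77 between Spns1 KO and FeO (exact permutation p = 0.0571, 0.114 adjusted). Slc34a3 differed by 0.88 from WT (exact permutation p = 0.0476, 0.11 adjusted) and by 1.42 from FeO (exact permutation p = 0.0286, 0.0866 adjusted). No difference on this scale passed after adjustment over the 30 tests, but the smallest p that 4 against 4 libraries allow is 0.0286, which Slc34a3 reached with every Spns1 KO library above every FeO library. Some other members lay lower in Spns1 KO on this scale. The marker sum was higher in every Spns1 KO library (3600 to 4380 CPM) than in any other library. A gene with unchanged CPM therefore also lies lower in Spns1 KO on this scale. Vdr, Fgfr1 and Slc20a2 differed from WT by -1.02, -1.03 and -0.74 (exact permutation p = 0.0159, 0.0866 adjusted, each). Vdr, Rxra, Pth1r and Slc20a2 differed from FeO by -0.64, -0.61, -0.80 and -0.68 (exact permutation p = 0.0286, 0.0866 adjusted, each). In all of these the libraries of the groups compared did not overlap, and the share of all tested genes that did so on this scale was not computed. In CPM the fitted log2 fold changes against WT were -0.46, -0.46 and -0.18 in the same order. Those against FeO were 0.09, 0.14, -0.02 and 0.07.

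The balance of both cotransporters did not differ beyond the spread between libraries. Slc34a1 counts per Slc34a3 count were 114, 110, 137, 99.0 and 131 in WT 1 to 5. They were 74.1, 73.1, 63.1 and 133 in Spns1 KO 1 to 4 and 145, 162, 110 and 107 in FeO 1 to 4. Spns1 KO 1, 2 and 3 lay below every WT library and Spns1 KO 4 at the upper end of WT. The log2 ratio differed by -0.52 between Spns1 KO and WT (two-sided exact permutation p = 0.0794, 0.193 adjusted) and by -0.65 between Spns1 KO and FeO (exact permutation p = 0.0857, 0.193 adjusted).

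Slc20a2, a sodium-phosphate carrier of another family (chr8:22476788-22569612, plus strand), did not differ in CPM beyond the spread between libraries. It ranged from 63.3 to 89.9 CPM in WT, 47.3 to 82.4 CPM in FeO and 59.9 to 85.2 CPM in Spns1 KO. Against WT the log2 fold change was -0.25 in FeO (SE 0.17, adjusted p = 0.246) and -0.18 in Spns1 KO (SE 0.17, adjusted p = 0.467).

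Per length of transcript, as RPKM (CPM per kilobase, here of the longest annotated transcript), WT made most Slc34a1, with a mean of 404, followed by Vdr with 128 and Cyp24a1 with 123. Those of Vdr and Cyp24a1 did not differ beyond the spread of Cyp24a1. Next came Pth1r (48.7), Cyp27b1 (40.6), Kl (32.9), Rxra (30.1), Fgfr1 (24.3) and Slc20a2 (22.8), and Slc34a3 was lowest with 6.34. Slc34a1 was thus far above its paralog Slc34a3 in every group, with means of 756 and 17.1 in Spns1 KO and of 298 and 4.19 in FeO. The order of the genes was not tested. The place of Cyp27b1 is uncertain, since it spanned 11.1 to 186 CPM over the WT libraries.

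How levels ran together across libraries was described with Pearson's r over the 13 libraries on log2 CPM, without a test, since libraries share groups and depth differs. Slc34a1 and Slc34a3 had r = 0.94 (0.84 within groups), and Cyp24a1 and Vdr had r = 0.84 (0.84 within groups). Spearman's rho, which uses ranks, was 0.88 and 0.75 for these pairs. FeO 1 was the lowest library for each of these genes, and r without it was not computed. Among the 12208 tested genes that averaged 100 or more counts, the pattern of Slc34a1 was most like Atxn7l2 (r = 0.95), Slc5a2, the apical glucose cotransporter and one of the proximal tubule markers (0.95), and Lrp3 (0.94). Cyp24a1 was most like Zfp85 (0.95), Zfp617 (0.94) and the bile acid receptor gene Nr1h4 (0.94). Cyp27b1 was most like Ankrd33b (0.92), Alkal2 (0.90) and the mitochondrial deacetylase gene Sirt3 (0.88).

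The lists that follow are to be read against all tested genes, of which 14.0% were called higher and 7.55% lower in Spns1 KO and 22.4% and 19.7% in FeO. Upstream of activation, most genes for the uptake of vitamin D were higher in Spns1 KO. Of 8 tested genes for uptake and first hydroxylation, 6 were called higher in Spns1 KO and none lower (0 also at an unadjusted p under 0.05 and by DESeq2 and limma-voom; median log2 fold change 0.88), and 5 were called higher in Spns1 KO than in FeO. In FeO against WT edgeR called 0 (median 0.08), as did DESeq2 and limma-voom, and at an unadjusted p under 0.05 there were 2 higher and 1 lower. Without Spns1 KO 4, WT 3 or FeO 1, 1 was called higher in FeO, and without FeO 2, 1 higher and 1 lower. Gc, the vitamin D binding protein, had a mean ± SD of 30.9 ± 9.85 CPM over 4 Spns1 KO libraries and of 9.20 ± 1.89 CPM over 5 WT libraries, a log2 fold change of 1.75 (SE 0.32, adjusted p = 0.00165, edgeR). Amn and Cubn, which together form the cubam receptor, changed by 1.68 and 1.02 (adjusted p = 0.00132 and 0.00519, edgeR). In FeO these 3 genes had values of 0.16, 0.67 and -0.39 (adjusted p = 0.689, 0.072 and 0.164). Lrp2 and Cubn are also among the proximal tubule markers whose sum was higher in every Spns1 KO library, and Lrp2 carries the Cre cassette in all groups.

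Of 10 tested cofactors and partners with which Vdr and Rxra act, 7 were called lower in FeO and 3 in Spns1 KO, and none higher (median log2 fold changes -0.70 and -0.34). When a smooth dependence of each library on transcript length and GC content was removed, 1 was called lower in FeO (median -0.17) and none in Spns1 KO (median -0.15), so all 3 calls in Spns1 KO and most in FeO were lost. Without Spns1 KO 1, 2 or 3 or WT 3, edgeR called 0 in Spns1 KO, and without WT 4 it called 1. At an unadjusted p under 0.05 there were 5 lower in Spns1 KO and 7 in FeO and 0 higher in either, and DESeq2 and limma-voom called 0 higher. Nrip1, a corepressor of nuclear receptors, fell by 1.39 in FeO and by 0.79 in Spns1 KO on the log2 scale (adjusted p = 0.000465 and 0.0146, edgeR). The coactivator Ncoa2 fell by 1.08 and 0.55 (adjusted p = 0.000709 and 0.0421), and the Mediator subunit Med1 by 0.98 and 0.58 (adjusted p = 0.000877 and 0.0288).

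Among 8 calcium transport genes that calcitriol regulates, 1 was called higher in Spns1 KO, and 2 higher and 1 lower in FeO, which is near the shares of all tested genes. S100g, the calcium-binding protein calbindin-D9k, had a mean ± SD of 78.3 ± 7.80 CPM over 5 WT libraries, 213.6 ± 106 CPM over 4 FeO libraries and 227.0 ± 101 CPM over 4 Spns1 KO libraries. Its log2 fold change was 1.45 in FeO and 1.53 in Spns1 KO (SE 0.36 each, adjusted p = 0.00495 and 0.00751, edgeR). FeO 2, at 63.9 CPM, lay below every WT library (65.0 to 84.9 CPM) and had the lowest distal marker sum (727 CPM), whereas all 4 Spns1 KO libraries exceeded WT in both. The part of distal tubule RNA in S100g was not tested. With the length and GC trend removed, edgeR called 0 of the list in Spns1 KO and 1 higher in FeO, where leaving out FeO 1 gave 1 higher and 2 lower and leaving out Spns1 KO 4, WT 1, WT 2 or WT 5 gave 2 and 2. Trpv6, an apical calcium channel of the distal nephron, changed by 1.17 in FeO (adjusted p = 0.016) and -0.43 in Spns1 KO (adjusted p = 0.409). Atp2b1, a calcium pump, fell by 0.72 in FeO (adjusted p = 0.0039, edgeR).

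Of 12 tested genes of FGF23 signalling, 1 was called higher and 2 lower in Spns1 KO, and 1 higher and 4 lower in FeO. Leaving out Spns1 KO 1, 2 or 3, WT 3 or WT 4 gave 1 lower in Spns1 KO, and in FeO there were 2 lower without FeO 1, 2 higher and 5 lower without FeO 2 and 2 higher without WT 4. Fgfr2, another FGF receptor, fell by 1.43 in Spns1 KO (SE 0.26, adjusted p = 0.00153), and its value in FeO was -0.55 (adjusted p = 0.0826, edgeR). Spry4, a feedback inhibitor of FGF receptors, fell by 1.91 in FeO (SE 0.56, adjusted p = 0.0124, edgeR) and had -0.34 in Spns1 KO (adjusted p = 0.665). Mapk3, which encodes the kinase ERK1, rose in both (0.76 and 1.33, adjusted p = 0.00722 and 0.000384, edgeR), but with the length and GC trend removed its call in Spns1 KO, the only higher one of the list there, was lost. Fgf23 itself had at most 10 counts in any library and was not tested.

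Of 10 tested genes of parathyroid hormone signalling, 1 was called higher in Spns1 KO, and 3 higher and 1 lower in FeO. Without Spns1 KO 4, 3 were called higher in Spns1 KO, and without Spns1 KO 3, WT 2, WT 3, WT 5, FeO 1, FeO 2 or FeO 4, 2 were. In FeO there were 2 higher and 2 lower without WT 1, WT 2, FeO 1 or FeO 3 and 3 and 2 without WT 5. Gnas, the stimulatory G protein that couples Pth1r to cyclic AMP, rose with the receptor in both groups, by 0.76 in Spns1 KO and 0.79 in FeO (SE 0.19 each, adjusted p = 0.00942 and 0.00379, edgeR), and every library of both groups lay above every WT library. Prkaca, the catalytic subunit of protein kinase A, rose in FeO (1.09, adjusted p = 0.00088, edgeR), with 0.36 in Spns1 KO (adjusted p = 0.203). Plcb1, the phospholipase of the other branch, fell by 0.80 in FeO (adjusted p = 0.00176, edgeR). Removing the length and GC trend ended this call, the only lower one of the list.

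Of 10 scaffold proteins and other phosphate carriers, 3 were called higher and 1 lower in Spns1 KO, and 2 higher and 4 lower in FeO. Without Spns1 KO 4 the counts in Spns1 KO were 4 and 3, and without FeO 1 or FeO 4 those in FeO were 2 and 2. Pdzk1ip1, a membrane protein that binds the scaffold Pdzk1, rose in both (1.27 and 1.47, adjusted p = 0.00205 and 0.000553, edgeR). Slc9a3r1, which encodes the scaffold NHERF1 that holds the Slc34a1 protein at the brush border, rose in FeO (1.27, adjusted p = 0.00107, edgeR), with 0.43 in Spns1 KO (adjusted p = 0.21). Slc34a2, the third cotransporter of the family, fell in both groups (by 1.19 and 0.94, adjusted p = 0.00263 and 0.00473, edgeR).

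Of 7 tested genes for phosphate hormones and their processing, edgeR called 0 in Spns1 KO, limma-voom 0 and DESeq2 1 lower, and 2 were lower at an unadjusted p under 0.05. In FeO, 3 were called higher and 2 lower. Without WT 1, WT 2 or FeO 1 the FeO counts were 1 and 1, without WT 3 they were 2 and 1, and without Spns1 KO 1, Spns1 KO 3, WT 5, FeO 2 or FeO 4 they were 3 and 1. Without Spns1 KO 4, 2 were called lower in Spns1 KO. Fam20c, the kinase that phosphorylates FGF23, rose by 0.84 in FeO (adjusted p = 0.00107, edgeR). Phex, a peptidase that restrains FGF23, fell by 1.20 (adjusted p = 0.00858), from a mean of 1.34 CPM in WT. With the length and GC trend removed, both lower calls in FeO, that of Phex included, were lost. Klb, which encodes beta-Klotho, rose by 1.81 (SE 0.63, adjusted p = 0.0296) on a mean of 30.1 counts per library. It was highest in FeO 1 (4.89 CPM) and FeO 3 (2.01 CPM). FeO 2 and FeO 4 (0.519 and 0.712 CPM) lay inside the WT range (0.252 to 0.849 CPM).

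**Figure D5:**
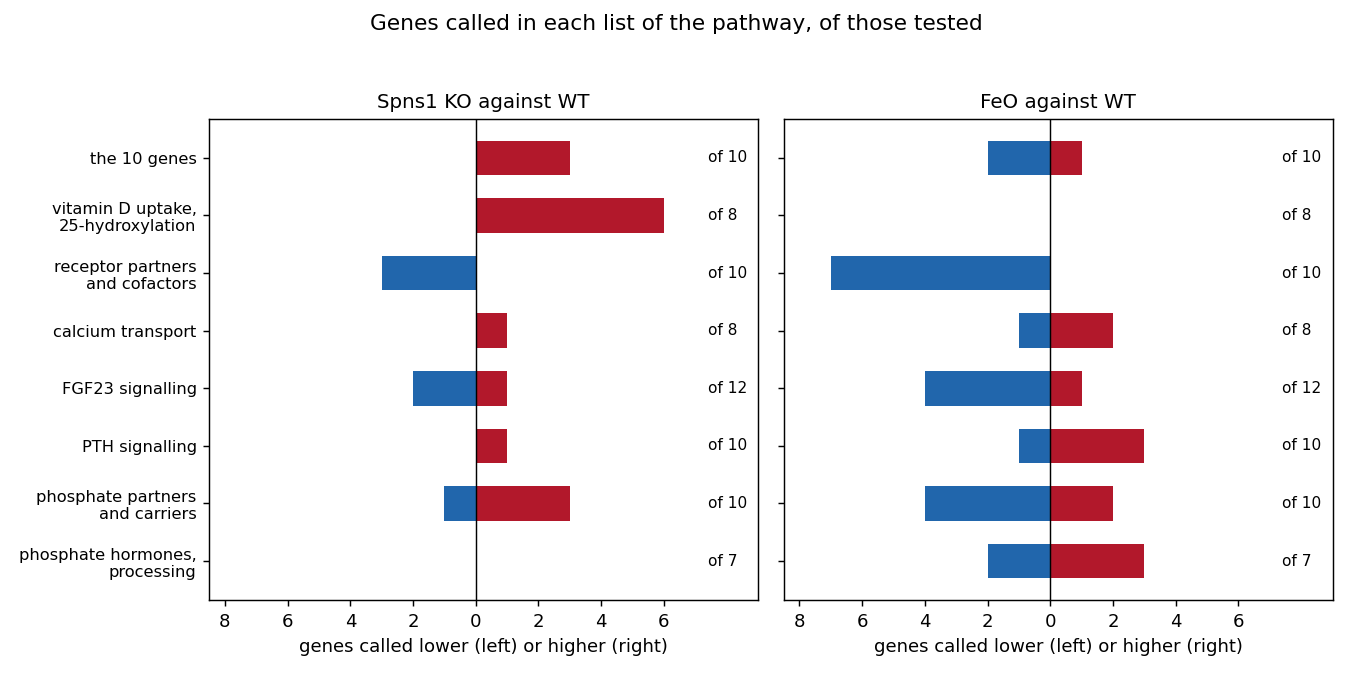
Number of genes called lower (left of 0) and higher (right of 0) in each list of the pathway, with the number tested, in Spns1 KO against WT and in FeO against WT. The longest bars are the 6 of 8 uptake genes called higher in Spns1 KO and the 7 of 10 receptor cofactors called lower in FeO.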

How the data were processed

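The authors deposited 1 table of estimated counts per gene symbol for 13 kidney libraries. The labels name bcl2fastq 2.19, kallisto 0.44.0, DESeq2 and GRCm38, whereas the methods describe trimming, alignment and per-gene counting with STAR and HTSeq, so how the counts arose is uncertain, and whether strand was used was not given. All values were whole numbers, and none was changed by rounding. Library totals were 23068023 to 37362311 counts in WT, 31809135 to 71296474 in Spns1 KO and 25986133 to 29981814 in FeO.

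Genes that passed edgeR's filterByExpr (16468 of 35013) were scaled with TMM factors and fitted in 1 quasi-likelihood model of all 13 libraries (edgeR 4.0.16, limma 3.58.1, R 4.3.3), with Benjamini-Hochberg adjustment over all tested genes. A call needed an adjusted p under 0.05 and a log2 fold change above 0.5 or below -0.5. Ratios of 2 genes' counts, with 0.5 added to each count, were compared with exact permutation tests in scipy 1.17.1 (Python 3.11.15). The labels do not say that libraries came from separate animals, so p-values measure the spread between these libraries, which may be technical.

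Alternatives were DESeq2 1.42.0, limma-voom, other library scalings, no filter, a replicate block, only the 2 groups compared, removal of a spline with 5 degrees of freedom on transcript length and GC content (known for 98.3% of tested genes), and omission of each library. Coordinates and lengths come from the GENCODE annotation of GRCm38, and promoters from RefSeq.

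The 10 genes, the lists of pathway genes and the cell type markers were chosen with earlier results of these data known. From each list the text names at most 3 called genes, those with the largest absolute log2 fold change among genes that averaged 20 or more counts. For Cyp27b1, Cyp24a1 and Slc34a1 it names the 3 genes most like them among those that averaged 100 or more, on log2 CPM with a prior count of 2. Spns1 is named as a check of the labels. Levels relative to summed proximal tubule markers were chosen after the data were seen. The main edgeR fit was first tested on simulated data for Spns1 KO against WT, and the alternative fits were not.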

Additional observations from a re-analysis of the deposited data

Results flagged for a closer look

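In 39 groups of member levels and ratios, 4 held a library far from the others of its group, where chance would pick out about 1 group in 20. In Spns1 KO, library 4 was the lowest of its group for Cyp27b1 (16.5 CPM, against 33.2 to 38.1 in the other 3), for Pth1r (120.0 CPM, against 205 to 215) and for Slc34a3 (24.9 CPM, against 40.6 to 42.6). In WT, library 5 had a log2 ratio of Cyp27b1 to Cyp24a1 counts of -5.279, against a range from -1.989 to -1.398 in the other 4 WT libraries.

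The effects against WT differed between Spns1 KO and FeO, by a direct test of Spns1 KO against FeO, for 2 of the 10 genes, where 14.9% of all tested genes were called. The log2 fold change of Spns1 KO over FeO was 1.343 for Slc34a1 (edgeR adjusted p = 0.019) and 2.033 for Slc34a3 (edgeR adjusted p = 0.0039). In both genes all 4 Spns1 KO libraries lay above all 4 FeO libraries. Spns1 KO also had the higher proximal tubule marker sums, and their part in these differences was not tested.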

How the results depend on the processing

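With library totals as the only scaling, the median log2 fold change of all genes in Spns1 KO against WT was -0.177 (-0.045 with TMM), 5 members were called there (2 higher and 3 lower, with Cyp27b1, Vdr and Fgfr1 lower), genes called were 1739 higher and 2086 lower (2307 and 1243 with TMM), and in Spns1 KO against FeO 751 higher and 1465 lower (1113 and 1334). Fitting only Spns1 KO and FeO left 1040 genes and 1 member called. Values near 0 changed sign: for Rxra to -0.017 in Spns1 KO (library totals), to 0.031 (no filter) and 0.28 (length and GC trend removed) in FeO, and to -0.063 in Spns1 KO against FeO (trend removed); for Slc20a2 in Spns1 KO against FeO to -0.008 (library totals); and for Cyp24a1 in Spns1 KO against FeO to 0.006 (upper-quartile factors), 1.083 (limma-voom), 0.004 (2 groups), 0.504 (replicate block) and 0.05 (trend removed). Relative to the proximal tubule markers, Slc34a1 in Spns1 KO against FeO was 0.767. The cause was not tested.

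Leaving out 1 library at a time gave 2035 to 5680 genes called in Spns1 KO against WT (3550 with all 13), with 2128, 2179, 2035 and 5680 without Spns1 KO 1, 2, 3 and 4 and 2305 without WT 3, and 1 to 4 members. It gave 2 to 5 members in FeO against WT, and 1181 to 3087 genes in Spns1 KO against FeO (2447 with all 13), with 1402, 1447 and 1181 without Spns1 KO 1, Spns1 KO 2 and FeO 1. Sign changes lay in the ranges -0.045 to 0.243 (Rxra, Spns1 KO against WT), -0.174 to 0.113 (Rxra, FeO against WT) and, in Spns1 KO against FeO, -0.409 to 1.372 (Cyp24a1), -0.078 to 0.224 (Vdr), -0.012 to 0.301 (Rxra), -0.125 to 0.146 (Pth1r) and -0.077 to 0.173 (Slc20a2). The log2 ratio of Cyp27b1 to Cyp24a1 ranged from -1.07 to 0.138 (Spns1 KO against WT) and from -0.128 to 1.059 (Spns1 KO against FeO). Of the member values, 350 kept direction and call, 18 lost and 8 gained a call and 14 changed sign; under the other settings these were 250, 7, 9 and 10.

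In 12 pairs of libraries that shared a number across groups, deviations from the group means correlated with r from -0.448 to 0.504 (median -0.166, 4 pairs over 0.1, 5000 genes). Pairs with different numbers had a median r of 0.0541, so by this measure a shared number did not mark more similar libraries. Whether the mice were paired cannot be told from these values. With the replicate block, 2988, 6516 and 1917 genes and 4, 3 and 2 members were called in Spns1 KO against WT, FeO against WT and Spns1 KO against FeO, with Cyp27b1 in Spns1 KO added (-1.90, adjusted p = 0.017). The least abundant of the 10 members, Slc34a3, averaged 760.1 counts and had 95 in its lowest library. The effect of depth on the members was not tested. The spread within groups leaves a standard error of 0.79 on the log2 scale for Cyp24a1 against WT.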
